A study of Homo sapiens with 3 samples.

Results

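The genes described here encode voltage-gated potassium (Kv) channels and the auxiliary proteins that bind them. They are the protein-coding genes whose symbols belong to the subfamilies KCNA, KCNB, KCNC, KCND, KCNF, KCNG, KCNH, KCNS and KCNV, together with the KCNIP and KCNAB genes. This rule found 42 genes among the 78932 of the deposited tables, and it used no measured value. RNA was sequenced from 3 untreated samples of iGluta, the commercial neurons sold as iCell GlutaNeurons, which are labelled as wild type and were made from human induced pluripotent stem cells. They had been cultured for 3 weeks. All 3 samples form 1 group, so the measurements show which channel genes these neurons expressed, at what level, and how far the samples differed. The study asked which channels and receptors the culture expressed.

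Kv channels open when the membrane depolarises and let potassium leave the cell, which ends action potentials and sets how fast a neuron can fire again. A channel is a tetramer of subunits, and those that form a working channel alone combine with each other within a single subfamily. The subunits of KCNF, KCNG, KCNS and KCNV are called silent, because they form no working channel alone and alter the channels of KCNB when they assemble with them. KCNIP proteins are calcium-binding partners of KCND channels, and KCNAB proteins are the cytoplasmic beta subunits of KCNA channels.

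The totals of estimated counts were 41079348 (replicate 1), 60092991 (replicate 2) and 34732725 (replicate 3), of which 49555, 77243 and 45423 fell on the 42 genes. Levels are given as TPM, a transcript's share per length scaled to a fixed total, and as mean ± SD over 3 libraries (n = 3) unless each library is listed. Replicate 3 stood apart in its mitochondrial RNA, which took 10.6% of TPM against 4.25 and 4.01% in replicates 1 and 2. The label of glutamatergic neurons was met in part. All 5 neuronal markers were above 1 TPM, as were both vesicular glutamate transporters (SLC17A6 and SLC17A7) and all 3 GABAergic markers (GAD1, GAD2 and SLC32A1). The transporters summed to 92.45, 114.99 and 179.91 TPM in replicates 1, 2 and 3. The GABAergic markers summed to more in every library, at 467.2, 508.8 and 244.7 TPM, but this sets 3 genes against 2. Gene by gene, GAD1 and SLC32A1 were each higher than SLC17A6 in replicates 1 and 2. In replicate 3 SLC17A6 (160.1 TPM) was higher than GAD1 (118.1), SLC32A1 (86.4) and GAD2 (40.2). No astrocyte, oligodendrocyte, microglial or endothelial marker of 16 was above 1 TPM in the limma test, with summed levels of 1.74 to 1.83, 0.55 to 1.47, 0.37 to 1.11 and 0.16 to 0.95 TPM, and MAG, AIF1, PECAM1 and CDH5 listed at 0. Of 5 heart and skeletal muscle markers, MYH7 (4.48 ± 0.276 TPM) and ACTN2 (3.36 ± 0.437 TPM) were above 1 TPM and MYOD1 was listed at 0. In RNA from whole cultures, fewer cells of a type and less RNA per cell cannot be told apart.

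Most of the 42 genes were expressed. Levels were tested against a bar of 1 TPM (limma on log2(TPM + 0.1), adjusted over all 38992 genes with any signal), and 33 were above the bar, 6 were below, 2 were undecided and 1 was listed at 0. Across all genes tested 40.6% were above and 45.1% below. Among the 17804 protein-coding genes tested 71.2% were above and 19.9% below, and on the same basis 80.5% of the 41 Kv genes with any signal were above, a share not far from the protein-coding background. The median of the 42 mean levels was 6.34 TPM, against 12.5 TPM for the protein-coding genes tested. By class, 22 of 25 pore-forming genes and all 7 auxiliary genes were above, and 4 of 10 silent genes were. For comparison, 7 of 9 KCNQ and HCN genes and 22 of 43 inward-rectifier, leak and calcium- or sodium-activated potassium channel genes were above, and these shares were not tested against each other.

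**Figure D1:**
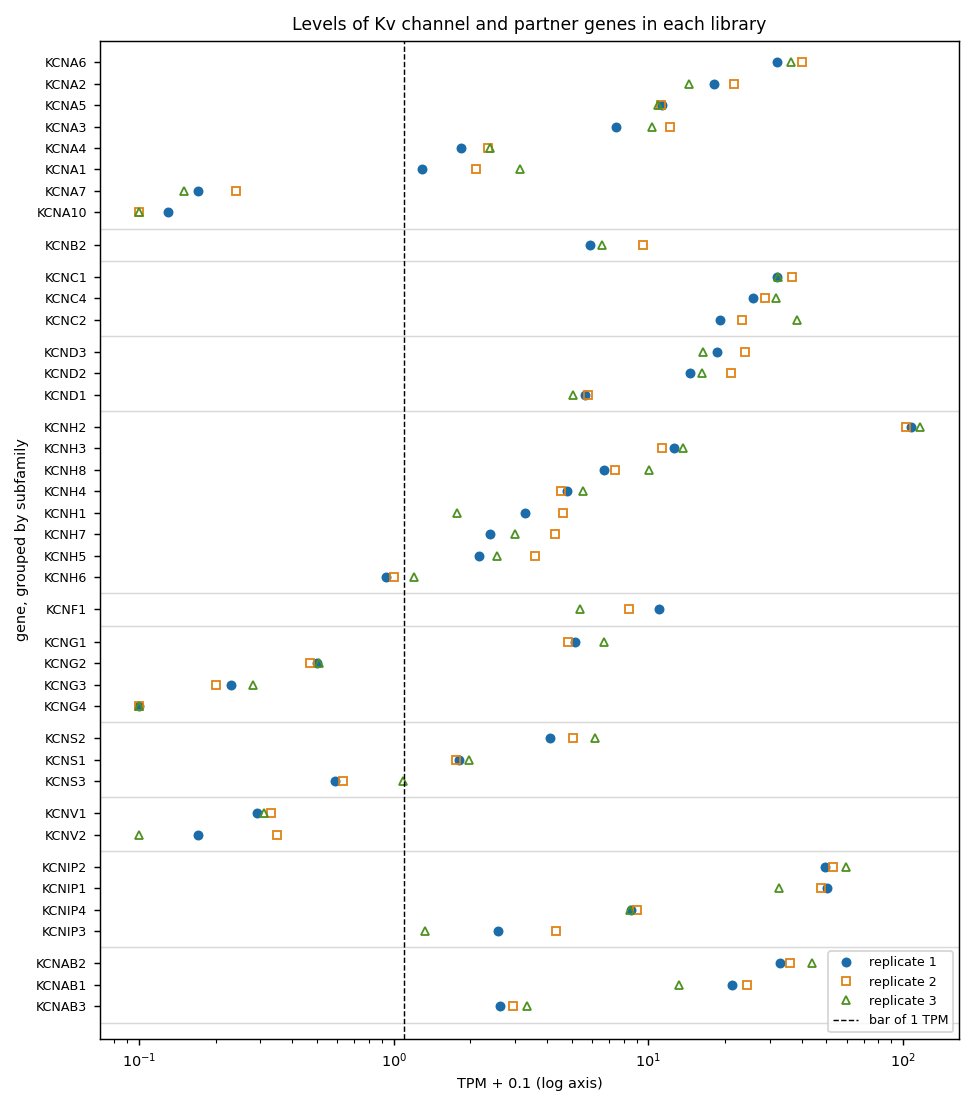
TPM + 0.1 (log axis) of the genes in the 3 libraries, grouped by subfamily, with the bar of 1 TPM as a dashed line. KCNH2 lies to the right of every other gene in each library (102.8 to 116.7 TPM), and most silent genes lie near or left of the bar.

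The DNA before the start of the genes was compared between high and low members (RefSeq, GRCh38.p14; 31 of the 42 genes matched). The 250 bases before the annotated start had a median ratio of observed to expected CG dinucleotides of 0.721 (the count of CG times the length over the product of the C and G counts). It was 0.741 for the 23 matched genes above 1 TPM, 0.659 for the 8 others and 0.741 for 15425 protein-coding genes. A ratio of at least 0.6 was found in 18 of 31 genes, or 58.1%, and in 64.1% of the protein-coding genes and 47.4% of all 27305 windows. The letters GGGCGG, on either strand, were in 18 of 31 windows (58.1%) and in 56.6% of protein-coding windows, and the letters TATAAA in 0 of 31 and in 9.2%. A window covers 1 annotated start per gene, and gene-level values do not show which start was used.

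High and low members were found with both many and few CG dinucleotides. The windows of 4 genes, chosen after their values were seen, show this, each read 5′ to 3′ on the gene's strand with every CG in capitals. KCNH2 (108.9 TPM, chr7:150978322-150978571, minus strand) holds 29 CG and KCNG3 (0.137 TPM, chr2:42493983-42494232, minus strand) holds 40, while KCNIP1 (43.3 TPM, chr5:170353237-170353486, plus strand) and KCNG4 (listed at 0, chr16:84240013-84240262, minus strand) hold 6 each.
KCNH2: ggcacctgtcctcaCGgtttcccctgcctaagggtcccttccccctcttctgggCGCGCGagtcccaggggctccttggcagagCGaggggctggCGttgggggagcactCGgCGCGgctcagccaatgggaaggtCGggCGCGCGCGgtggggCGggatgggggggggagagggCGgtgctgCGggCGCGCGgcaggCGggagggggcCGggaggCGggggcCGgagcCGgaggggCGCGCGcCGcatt
KCNG3: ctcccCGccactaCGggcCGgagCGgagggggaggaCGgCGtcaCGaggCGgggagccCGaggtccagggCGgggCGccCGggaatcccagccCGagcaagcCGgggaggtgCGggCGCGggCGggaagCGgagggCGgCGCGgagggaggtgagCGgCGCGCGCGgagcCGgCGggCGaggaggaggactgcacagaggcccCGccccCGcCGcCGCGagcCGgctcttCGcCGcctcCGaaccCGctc
KCNIP1: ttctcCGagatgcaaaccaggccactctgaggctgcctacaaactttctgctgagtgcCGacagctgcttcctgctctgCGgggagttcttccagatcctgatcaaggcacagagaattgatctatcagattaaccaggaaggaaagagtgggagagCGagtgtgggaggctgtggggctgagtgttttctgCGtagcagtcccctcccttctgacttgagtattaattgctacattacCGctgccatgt
KCNG4: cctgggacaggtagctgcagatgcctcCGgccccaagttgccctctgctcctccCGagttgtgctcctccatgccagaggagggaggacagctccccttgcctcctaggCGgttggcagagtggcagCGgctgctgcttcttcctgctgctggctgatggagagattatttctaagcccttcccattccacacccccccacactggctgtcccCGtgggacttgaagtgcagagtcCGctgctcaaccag

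KCNH2, which encodes the hERG channel that repolarises the heart and also sets firing in neurons, was the highest of the 42 genes in every library. Its level was 107.0, 102.8 and 116.7 TPM in replicates 1, 2 and 3, and the lowest of these values exceeded the highest value of any other member, 59.7 TPM for KCNIP2 in replicate 3. It lay 6.63 ± 0.0763 (SE) above the bar on the log2 scale (limma, adjusted p = 8.23e-11). KCNH2 made up 28.6, 23.9 and 27.9% of the summed TPM of the 25 pore-forming genes. With it the KCNH subfamily reached 144 ± 8.55 TPM, the highest sum of the 5 pore-forming subfamilies in each library. KCNH2 held 74.0 to 76.9% of that sum.

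The other KCNH genes were much lower. KCNH6 and KCNH7 encode the other channels of the erg type. KCNH7 was at 2.3, 4.21 and 2.89 TPM, and KCNH6 at 0.83, 0.9 and 1.1 TPM, where it could not be placed above or below the bar (limma, adjusted p = 0.811). KCNH2 exceeded KCNH7 by 5.48, 4.58 and 5.29 on the log2 scale of TPM + 0.1, a mean of 5.12 ± 0.476 (SD), or 34.7-fold. With 3 libraries the smallest p of the exact 2-sided sign-flip permutation test is 0.25, so no pair described here could pass 0.05. A pair is therefore called different when its sign held in 3 of 3 libraries with a mean over 2 SD from 0, as for KCNH2 and KCNH7 (exact permutation p = 0.25).

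The elk-type genes were intermediate. KCNH3 was at 12.6, 11.2 and 13.6 TPM, KCNH8 at 6.57, 7.3 and 10 and KCNH4 at 4.68, 4.44 and 5.44, so KCNH3 was the highest of them in every library. The eag-type genes KCNH1 (3.18, 4.54 and 1.68 TPM) and KCNH5 (2.06, 3.49 and 2.44 TPM) overlapped. Their log2 difference was 0.60, 0.37 and -0.51 and did not keep its sign (exact permutation p = 0.75).

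KCNC1, KCNC2 and KCNC4, of a subfamily whose channels open and close quickly, were expressed at similar levels. KCNC1 was at 31.9, 36.6 and 32.1 TPM and KCNC4 at 25.6, 28.5 and 31.6, and the values of KCNC1 exceeded those of KCNC4 in every library. KCNC2 stood at 19.1, 23.3 and 38.1 TPM, so replicate 3 was the highest. KCNC2 was lower than KCNC1 and KCNC4 in replicates 1 and 2 and higher than both in replicate 3. The difference between KCNC1 and KCNC2 was 0.74, 0.65 and -0.25 on the log2 scale (exact permutation p = 0.5), within the spread. Without replicate 3 the mean was 0.69, over 2 SD from 0, a rule that is easily met with 2 libraries.

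The KCNA genes, the Shaker-type channels of axons and terminals, ranged from 36.02 TPM to 0.01 TPM on average. KCNA6 led in every library with 32.0, 39.9 and 36.2 TPM, 44.7 to 47.0% of the subfamily's sum. KCNA2, a main axonal subunit of the adult brain, was at 17.99, 21.6 and 14.4 TPM, KCNA5 at 11.2, 11.1 and 10.8 and KCNA3 at 7.38, 12.1 and 10.2. KCNA5, known mainly from the heart's atria, was on TPM the steadiest of the 42 genes that reached 1 TPM, with a coefficient of variation of 2.09%. On TMM-scaled log2(CPM + 0.5) its SD was 0.060, and KCNIP4 (0.027), KCNA4 (0.049) and KCND1 (0.049) were steadier.

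KCNA1, the axonal partner of KCNA2, was low, at 1.19, 2.01 and 3.02 TPM. It was lower than KCNA2 in each library, with log2 differences of -3.81, -3.36 and -2.21, and the mean of -3.13 ± 0.824 (SD) was called different (exact permutation p = 0.25). KCNA1 was above the bar with all libraries (limma, adjusted p = 0.0255) and lost that call without replicate 2 (adjusted p = 0.099) or replicate 3 (adjusted p = 0.131), and with a pseudocount of 1 (adjusted p = 0.0585). KCNA4, whose channel inactivates by a tethered N-terminal ball, was at 1.74, 2.25 and 2.29 TPM. KCNA7 (0.05 to 0.14 TPM; 4 to 17 counts) and KCNA10 (0 to 0.03 TPM; at most 1 count) were below the bar.

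Neighbouring KCNA genes differed in level (GRCh38.p14, RefSeq). On chromosome 12 KCNA6, KCNA1 and KCNA5 lie in a row with gaps of 58.8 and 125.6 kb, at mean levels of 36.02, 2.07 and 11.0 TPM. On chromosome 1 KCNA10, KCNA2 and KCNA3 lie in a row with gaps of 74.4 and 22.1 kb, at 0.01, 17.99 and 9.9 TPM. In every library KCNA1 was lower than both of its neighbours, and KCNA10 was lower than KCNA2.

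KCNB2, which encodes a delayed rectifier of soma and dendrites, was at 5.79, 9.4 and 6.49 TPM and was highest in replicate 2.

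KCND genes encode the A-type channels that delay firing from the dendrites. KCND3 was at 18.5, 23.8 and 16.3 TPM and KCND2 at 14.4, 21.0 and 16.2. The mean log2 difference of KCND2 from KCND3 was -0.18 ± 0.174 (SD; exact permutation p = 0.25), within 2 SD of 0, and replicate 3 brought it to -0.01. On CPM with all libraries the difference was -0.89, over 2 SD from 0. Without replicate 3 the TPM difference was -0.27, also over 2 SD from 0, a rule that is easily met with 2 libraries. KCND1 was lower, at 5.52, 5.71 and 4.94 TPM, and did not overlap the other KCND genes.

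**Figure D2:**
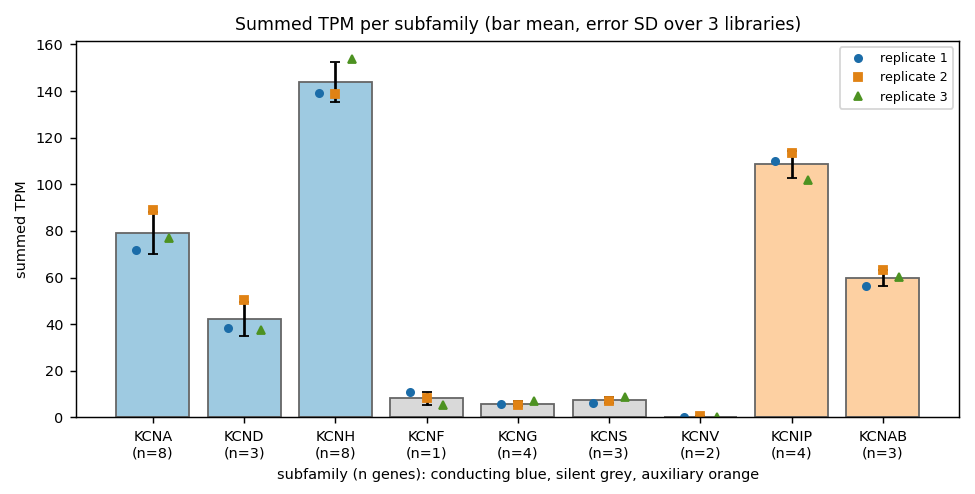
Summed TPM of 9 subfamilies, with bars at the mean, error bars of 1 SD over 3 libraries and a point per library. KCNH (144 TPM) and KCNIP (108.5 TPM) had the highest sums of those drawn, and the 4 silent subfamilies had means of at most 8.15 TPM, with single libraries of up to 10.9 TPM.

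The silent subunits were the least expressed class. Their sum was 22.9, 21.1 and 21.7 TPM, against 374.9, 430.6 and 417.8 TPM for the pore-forming genes, a log2 ratio of -4.03, -4.35 and -4.27. On CPM the mean ratio was -4.99, against -4.22 on TPM. KCNF1, which held 37.3% of the silent sum by mean levels, was at 10.9, 8.28 and 5.31 TPM, with replicate 1 the highest. In replicate 3 it was lower than KCNG1 and KCNS2. KCNG1 was at 5.03, 4.72 and 6.6 TPM, KCNS2 at 4.01, 4.95 and 6.09 and KCNS1 at 1.7, 1.65 and 1.88. These 4 were above the bar, and KCNS1 lost its call without replicate 1 (limma, adjusted p = 0.0917) or replicate 2 (adjusted p = 0.0723), and with a pseudocount of 1 (adjusted p = 0.0578).

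The remaining silent genes were near or under the bar. KCNS3 was undecided (0.49, 0.53 and 0.99 TPM; limma, adjusted p = 0.193). KCNG2, KCNG3, KCNV1 and KCNV2 were below it, with means of 0.393, 0.137, 0.21 and 0.107 TPM. KCNG2 lost that call without replicate 1 (limma, adjusted p = 0.0733) or replicate 2 (adjusted p = 0.095). KCNV2, known from photoreceptors, had 3, 15 and 0 counts, so its mean rests on replicate 2. KCNG4 was listed at 0 throughout. Its 0 counts allow a level of up to 3 counts, or 0.073, 0.05 and 0.086 CPM in replicates 1, 2 and 3 (counts scaled by the library total, counting error only).

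The auxiliary genes ranged from 2.65 TPM (KCNIP3) to 53.9 TPM (KCNIP2) on average. KCNIP2 was at 49.3, 52.9 and 59.7 TPM and KCNIP1 at 49.97, 47.4 and 32.6, and they ranked among the 6 highest of the 42 genes in every library. KCNIP4 was steady at 8.42, 8.9 and 8.4 TPM. KCNIP3, which is also known as the transcriptional repressor DREAM, was at 2.47, 4.24 and 1.23 TPM, and lost its call above the bar without replicate 2 (limma, adjusted p = 0.121). KCNIP1 exceeded KCNIP4 by 2.55, 2.4 and 1.94 on the log2 scale, a mean of 2.3 ± 0.319 (SD), which was called different (exact permutation p = 0.25).

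Set against their channel, KCNIP genes summed to 110.1, 113.4 and 101.9 TPM and KCND genes to 38.5, 50.5 and 37.4 TPM. The log2 ratio was 1.52, 1.17 and 1.45, or 2.6-fold on average. On CPM the mean turned to -0.34, because the KCND genes took a median of 106.9 counts per TPM and the KCNIP genes 41.6. The excess of KCNIP over KCND therefore held per length and not per read.

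Among the beta subunits KCNAB2 was at 32.7, 36.02 and 43.9 TPM, KCNAB1, whose N-terminus can block the pore of KCNA channels, at 21.2, 24.2 and 13.1, and KCNAB3 at 2.51, 2.85 and 3.25. KCNAB2 was higher than KCNAB1 in each library. The log2 difference of 0.63, 0.57 and 1.74 averaged 0.98 ± 0.658 (SD; exact permutation p = 0.25), within 2 SD of 0. On CPM with all libraries the difference was 1.08, over 2 SD from 0. Without replicate 3 the TPM difference was 0.60, also over 2 SD from 0, a rule that is easily met with 2 libraries. KCNAB genes summed to 56.4, 63.1 and 60.2 TPM against 71.6, 89.1 and 76.9 TPM for KCNA, a log2 ratio of -0.35, -0.50 and -0.35 with a mean of -0.40. On CPM the mean was -1.41.

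**Figure D3:**
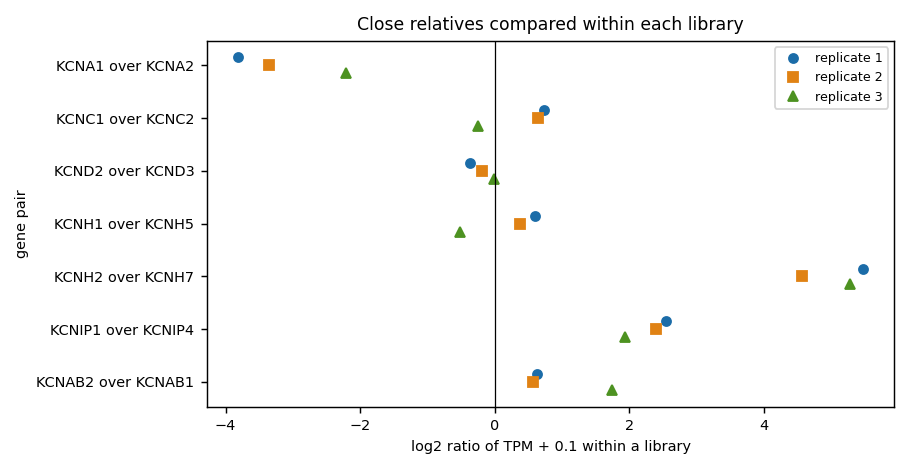
Log2 ratio of TPM + 0.1 within each library for 7 pairs of close relatives (1 point per library). The points of KCNH2 over KCNH7 lie farthest right (4.58 to 5.48), while KCNC1 over KCNC2 and KCNH1 over KCNH5 cross 0 in replicate 3.

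The order of the genes depended on the scale. On TPM, neighbours in the order of means had overlapping ranges over the libraries in 32 of 41 cases. These ranges alone settle the order only in steps, the first between KCNH2 and KCNIP2. Within libraries, some neighbours with overlapping ranges kept their order, as KCNA6 over KCNC1. Others did not, as KCNIP2 was lower than KCNIP1 in replicate 1. On CPM KCNH2 remained first (mean 202.3 CPM), and KCNA2 (87.4 CPM) went from rank 13 to rank 4. KCNIP2 went from rank 2 to rank 11 and KCNIP1 from rank 3 to rank 14. Of the 10 highest genes on TPM, 8 were among the 10 highest on CPM.

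**Figure D4:**
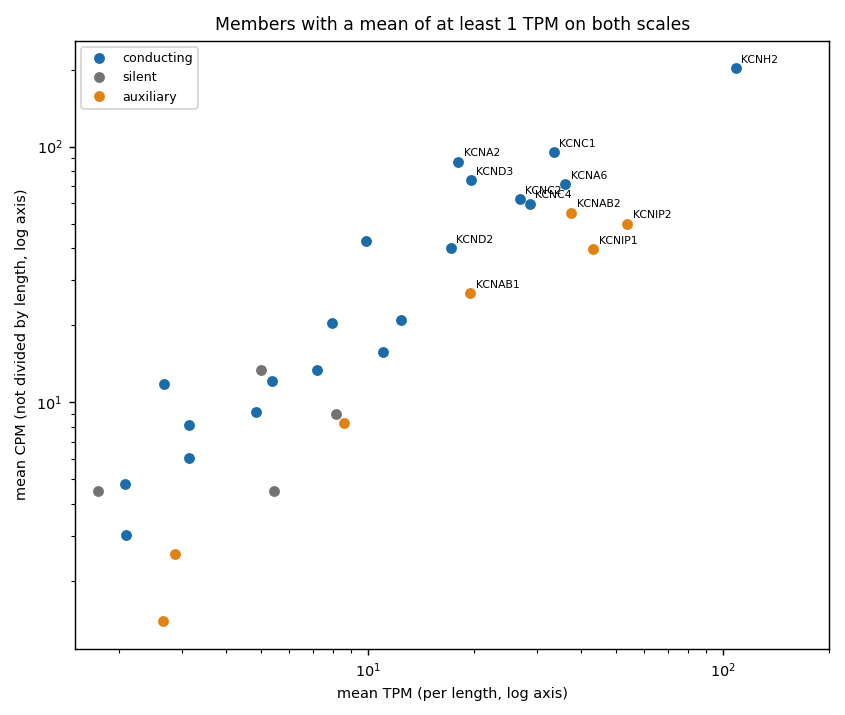
Mean TPM (per length) against mean CPM (not divided by length) over 3 libraries for genes with a mean of at least 1 TPM, both axes logarithmic, coloured by class. At a like TPM the auxiliary genes lie lower on the CPM axis than most pore-forming genes, and KCNA2 (87.4 CPM at 17.99 TPM) lies well above KCNAB1 (26.6 CPM at 19.5 TPM).

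The libraries differed in some members. Each library was compared with the mean of the other 2 on TMM-scaled log2(CPM + 0.5) for the 38 members with a mean count of at least 10, as a description with no test. Replicate 3 was over 1.5-fold higher for 4 members and over 1.5-fold lower for 3, against 5.81 and 5.82% of all 21186 genes of that depth. These counts are 10.5 and 7.89% of the members. Replicate 2 was higher for 3 members and lower for 0 (2.84 and 2.26% of all genes), and replicate 1 was higher for 1 and lower for 3 (2 and 3.46%).

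In replicate 3 the higher genes were KCNA1 (1.2 on the log2 scale), KCNC2 (0.95), KCNS3 (0.66) and KCNH8 (0.63), and the lower ones KCNIP3 (-0.89), KCNH1 (-0.85) and KCNF1 (-0.69). Replicate 3 was the smallest library and yet held the most counts of both: KCNA1 had 113, 225 and 272 counts and KCNC2 had 1862, 3042 and 3144. Transmitter markers moved in the same library: SLC17A6 was 0.92 and SLC17A7 0.97 higher there on the same scale and GAD1 0.83, GAD2 1.0 and SLC32A1 0.93 lower, and the mitochondrial share was highest there. Their part in the differences of the Kv genes was not tested. KCNH7 was over 1.5-fold lower in replicate 1 (-0.69) and higher in replicate 2 (0.62). The median SD of log2 CPM was 0.204 over 32 members with a mean count of at least 100, against 0.145 over 14181 genes of that depth.

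**Figure D5:**
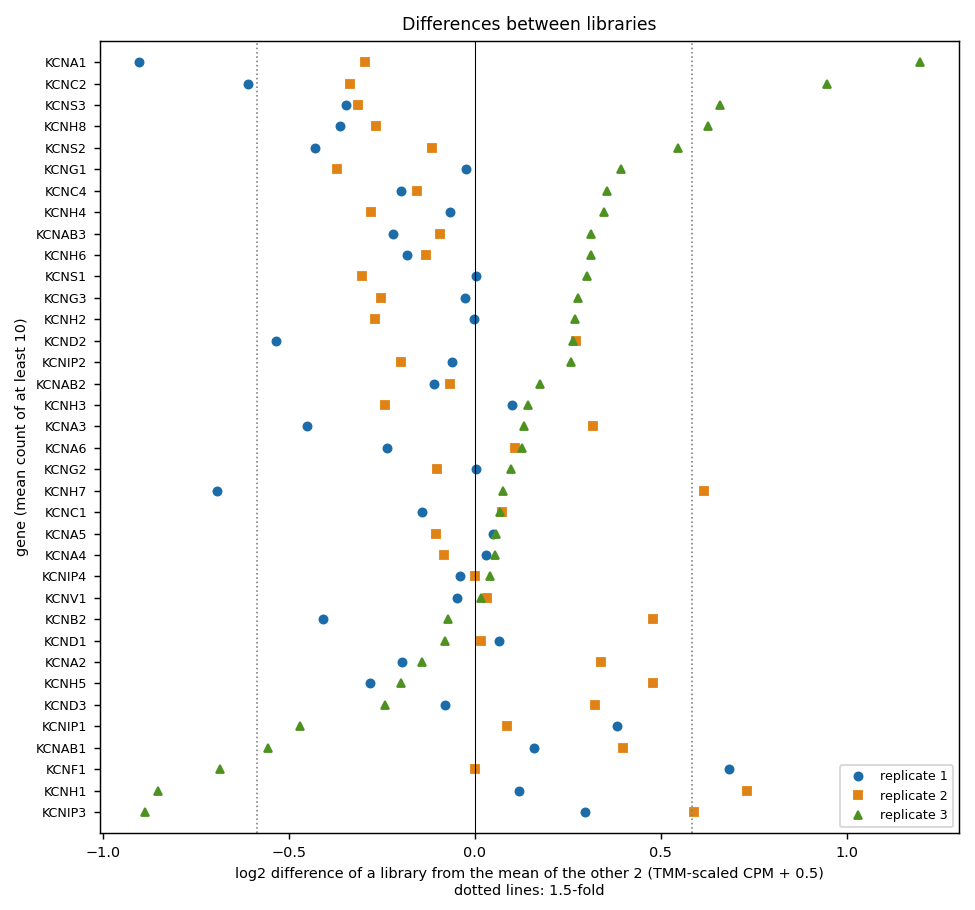
Log2 difference of each library from the mean of the other 2 for members with a mean count of at least 10, sorted by replicate 3, with dotted lines at 1.5-fold. KCNA1 and KCNC2 lie farthest right in replicate 3 (1.2 and 0.95), and KCNIP3 and KCNH1 farthest left (-0.89 and -0.85).

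Genes of other proteins that bind or place Kv channels were also measured. Of 20 such genes 15 passed the bar of 1 TPM, 2 lay below it, KCNE2 and KCNE5 were undecided and KCNE3 was listed at 0 (limma, adjusted over all genes). The 15 genes are 78.9% of the 19 with any signal, not far from the 71.2% of all protein-coding genes. DPP6 and DPP10, the peptidase-like partners that complete KCND channel complexes, were at 130.1, 142.2 and 122.3 TPM and at 57.8, 68.6 and 50.9 TPM. For KCNB channels, AMIGO1, an adhesion protein that travels with them, was at 21.3 ± 2.59 TPM, and VAPA and VAPB, which tether them to the endoplasmic reticulum, at 371.7 ± 25.1 and 46.6 ± 4.37 TPM.

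Partners of KCNA channels at axonal domains were also above the bar. CNTNAP2 was at 243, 325.9 and 235 TPM, CNTN2 at 25.2 ± 1.85 and CNTNAP1, of the neighbouring paranode, at 32.1 ± 4.9. The scaffold gene DLG4 was at 331.1 ± 15.6 TPM, DLG2 at 32.2 ± 4.92 and DLG1 at 19.9 ± 1.47. ADAM23 (50.7 ± 4.26 TPM) and ADAM22 (21.3 ± 4.79 TPM), the receptors of the secreted protein LGI1, exceeded LGI1 itself (5.79 ± 0.221 TPM). The KCNE genes, small membrane subunits that modify several Kv channels including hERG, were low: KCNE2 (1.57 ± 0.313 TPM) and KCNE5 (0.773 ± 0.362) were undecided and KCNE1 (0.273 ± 0.103) and KCNE4 (0.217 ± 0.0702) were below. KCNE2 (limma, adjusted p = 0.0756) was above the bar with a pseudocount of 0.01 (adjusted p = 0.0499), among genes with a mean count of at least 10 (adjusted p = 0.0442) and without the variance trend (adjusted p = 0.033), over a range of 0.033 to 0.351 across the alternatives. KCNRG, a cytoplasmic regulator of Kv assembly, was at 2.35 ± 0.601 TPM.

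Some values are less certain because reads could be shared. The estimated counts of 15 members were not whole in at least 1 library (tolerance 0.005), among them KCNA1, KCNA5, KCNA6, KCNIP2 and KCNAB2, as RSEM gives where a read is divided between genes. By RefSeq positions the spans of 5 members, introns included, overlap another protein-coding gene (all chosen after their values were seen). They are KCNH3 with MCRS1 (39 bp), KCNH7 with GCA (3990 bp), KCNS2 with STK3 (5896 bp), KCNIP1 with KCNMB1 (14697 bp) and KCNIP4 with PACRGL (38768 bp). MCRS1 (57.3 to 65.7 TPM), GCA (20.4 to 21.5 TPM) and PACRGL (16.2 to 19.7 TPM) stood higher than the member they overlap, and STK3 and KCNMB1 were under 1 TPM in every library. KCNIP2-AS1, an antisense RNA within KCNIP2, was at 2.42, 2.42 and 1.19 TPM. Of the members with these overlaps, KCNH7 and KCNIP4 had counts that were not whole in at least 1 library. Counts of KCNH3, KCNS2 and KCNIP1 were whole in each library. An overlap of spans does not by itself show that reads were shared. Whether the counting used strand is not stated, so the assignment of reads within the overlaps could not be checked.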

How the data were processed

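RNA from 3 samples was sequenced as strand-specific, polyadenylated libraries with paired reads of 151 bp, per the labels' protocols. The authors deposited estimated counts per gene and TPM, which divides by effective transcript length; per the submitters' processing notes RSEM and GRCh38.p14 were used, and nothing states the aligner, annotation release or filters. The depth was 34732725 to 60092991 counts per library, and floors for a count of 0 cover counting error only. The labels do not say whether the samples came from separate cultures, so errors and p-values measure only how these samples vary, and that variation may be technical. The libraries were not duplicates (chi-square per degree of freedom of 22.5 to 63.5 between pairs).

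Each gene's log2(TPM + 0.1) was compared with a bar of 1 TPM (limma 3.58.1 with an intercept alone and a mean-variance trend, 2-sided, Benjamini-Hochberg adjustment over 38992 genes, threshold 0.05), a step tested on simulated data. Gene pairs were compared within libraries by an exact sign-flip permutation test, and sums were described with no test. Differences between libraries used counts rounded to whole numbers and TMM scaling (edgeR 4.0.16). DESeq2 1.42.0 size factors, other pseudocounts, filters and bars, CPM and leaving out each replicate were the alternatives. The genes and lists were chosen with earlier results of these data known. Every member, each gene of the pairs and partner list and the cell markers could be named. No protein sequences were used here. Values of 2 members, and results that need them alone, are not reported here.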

Additional observations from a re-analysis of the deposited data

How the results depend on the processing

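The count of Kv genes above 1 TPM ran from 27 (bar of 2 TPM) to 33 over all settings tried, and from 30 to 32 with a replicate left out. The count below was 6, 4 to 6 with a replicate left out and 8 with a bar of 2 TPM. With genes of a mean count of at least 10 it was 3, and that of the partner genes below fell from 2 to 1, since fewer genes are then tested. The partner genes above numbered 15, or 16 where KCNE2 was called, and 14 with a bar of 2 TPM. With that bar, the log2 estimates of KCNA1 (-0.042, limma, adjusted p = 0.899) and KCNS1 (-0.19, adjusted p = 0.482) turned negative, and both genes were undecided.

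On CPM, which is not divided by length, the log2 ratios of sums were -0.34 for KCNIP over KCND (1.38 on TPM, so it turned), -1.41 for KCNAB over KCNA and -4.99 for silent over pore-forming genes. On the same scale KCND2 minus KCND3 was -0.89 and KCNAB2 minus KCNAB1 was 1.08, each over 2 SD from 0, and KCNH1 minus KCNH5 was -0.58, within 2 SD. With a replicate left out, the means ran from 0.20 to 0.69 for KCNC1 minus KCNC2, from -0.27 to -0.10 for KCND2 minus KCND3, from -0.071 to 0.49 for KCNH1 minus KCNH5 and from 0.60 to 1.18 for KCNAB2 minus KCNAB1. Each was over 2 SD from 0 only without replicate 3, a rule that is easily met with 2 libraries. The cause was not tested.

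At 2-fold, 1 member was higher in replicate 3 (KCNA1) and 0 were lower, and 0 were higher or lower in replicates 1 and 2. On deposited TPM 5 members were over 1.5-fold higher in replicate 2, where the median of all genes was 0.14 on the log2 scale, and -0.13 in replicate 3. Depth limits KCNA7, KCNA10, KCNV2 and KCNG4, whose mean counts were under 10. No paired analysis was possible because all samples belong to 1 group.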
